A study of Mus musculus with 8 samples.

Results

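The acinar exocrine genes are 39 genes chosen by name for their use in pancreatic acinar cells, of which 32 had a row in the deposited tables of 16333 genes. They comprise transcription factors of the acinar cell, digestive enzymes with their inhibitor and cofactor, regenerating proteins and proteins of the zymogen granule. The other 7, Ptf1a, Rbpjl, Cela3a, Ctrc, Prss1, Prss3 and Try10, were not analysed here. Of the 32, 3 encode transcription factors (Bhlha15, Nr5a2 and Gata4) and 29 encode enzymes, secreted proteins or granule proteins. All 32 came through the filter on low genes that the tables show, in which no gene has a mean under 23.2 normalized counts.

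RNA was sequenced from hand-picked pancreatic islets of adult mice of the strain Agouti/C57BL6, for a study of the genes that depend on NFATc2 in stressed islets. In 2 mice (KO) tamoxifen had deleted NFATc2 in insulin-expressing cells in vivo, and 2 wild-type mice (WT) had also received tamoxifen, without a deletion. Islets of each mouse were split between a culture left untreated for 2 h and one given IL1β (5 ng/mL), TNFα (10 ng/mL) and IFNγ (50 ng/mL) in 11 mM glucose for 2 h, after a night in 5.5 mM glucose. The 8 libraries thus form 4 groups of 2, the replicate is the mouse, and the action of the cytokines cannot be told apart from that of the raised glucose. Per the labels' growth protocol the islets came from C57BL/6 mice of a commercial supplier and from NFATc2βKO mice, and the labels do not say whether the WT mice carried the same transgene. As far as the labels say, NFATc2 was left intact in acinar cells.

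Acinar cells make up most of the pancreas and fill zymogen granules with digestive enzymes, many of them as inactive precursors that are activated in the gut. Islets are endocrine clusters embedded in that tissue, and collagenase digestion followed by density separation and hand picking is meant to leave the acinar tissue behind. In the adult acinar cell the factor PTF1A, bound to RBPJL, drives the enzyme genes by binding an E-box together with a TC-box, and NR5A2, GATA4 and BHLHA15 (MIST1) take part in the same program. BHLHA15 is also made in other secretory cells, such as plasma cells.

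The deposited tables hold group means, from which the reads of each library were recovered for 16286 genes (99.7%), all 32 members among them. The 8 libraries held 13820114 to 25529431 recovered reads, and every group contained 1 library with at least 7516 reads of 4 Y-linked genes and 1 with at most 37, called male and female here. The sex also links the untreated and the treated library of a mouse. With 1 female and 1 male mouse per genotype, the sex and the individual preparation cannot be told apart. Nfatc2 itself held 842 to 1167 normalized counts in the KO and 1144 to 1646 in the WT libraries, and its KO over WT log2 fold change was -0.49 (SE 0.23, FDR 0.903) untreated and -0.56 (SE 0.24, FDR 0.474) with cytokines in the authors' deposited table. A count over the whole gene in a mixture of cells is a limited check of a deletion in 1 cell type. Ins2, the defining gene of beta cells, stood at group means of 880435 to 1039157 normalized counts in the authors' deposited tables.

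The promoters of 5 members that the results turn on are shown first: Ctrb1, Cela1 and Prss2 as the most abundant chymotrypsin, elastase and trypsin genes, Reg2 as the member with one of the widest spreads between libraries, and Bhlha15 as the member that followed a different course. The sequences are RefSeq's on GRCm38.p6, from 250 bases before to 50 bases after the annotated start, written 5′ to 3′ along the gene. Capitals mark each CACCTG (an E-box) or TGGGAA (a TC-box core) on either strand, so that CAGGTG and TTCCCA are the same motifs read from the other strand.
Ctrb1 (chr8:111690961-111691260, minus strand): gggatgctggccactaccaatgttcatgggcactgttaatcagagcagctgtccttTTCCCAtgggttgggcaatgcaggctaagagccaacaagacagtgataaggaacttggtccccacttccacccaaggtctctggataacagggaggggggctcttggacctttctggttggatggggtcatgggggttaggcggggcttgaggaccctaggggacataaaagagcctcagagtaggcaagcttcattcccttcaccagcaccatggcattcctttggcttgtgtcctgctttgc
Cela1 (chr15:100687871-100688170, minus strand): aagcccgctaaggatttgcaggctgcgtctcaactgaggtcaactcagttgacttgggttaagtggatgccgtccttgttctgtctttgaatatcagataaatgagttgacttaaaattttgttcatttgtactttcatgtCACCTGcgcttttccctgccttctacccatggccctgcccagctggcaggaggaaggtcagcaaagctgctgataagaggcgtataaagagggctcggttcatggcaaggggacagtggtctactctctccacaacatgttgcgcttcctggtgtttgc
Prss2 (chr6:41521526-41521825, plus strand): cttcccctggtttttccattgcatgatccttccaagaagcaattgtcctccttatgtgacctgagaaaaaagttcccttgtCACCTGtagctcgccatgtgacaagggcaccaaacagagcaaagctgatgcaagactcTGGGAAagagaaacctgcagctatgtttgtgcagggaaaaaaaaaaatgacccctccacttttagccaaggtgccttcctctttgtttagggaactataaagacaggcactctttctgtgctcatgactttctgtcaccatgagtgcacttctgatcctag
Reg2 (chr6:78404905-78405204, plus strand): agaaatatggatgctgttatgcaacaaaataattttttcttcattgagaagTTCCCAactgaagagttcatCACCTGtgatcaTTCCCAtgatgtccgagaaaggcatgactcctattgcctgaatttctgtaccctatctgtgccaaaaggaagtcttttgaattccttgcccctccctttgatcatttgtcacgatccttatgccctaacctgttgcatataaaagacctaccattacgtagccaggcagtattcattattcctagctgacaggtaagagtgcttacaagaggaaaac
Bhlha15 (chr5:144190036-144190335, plus strand): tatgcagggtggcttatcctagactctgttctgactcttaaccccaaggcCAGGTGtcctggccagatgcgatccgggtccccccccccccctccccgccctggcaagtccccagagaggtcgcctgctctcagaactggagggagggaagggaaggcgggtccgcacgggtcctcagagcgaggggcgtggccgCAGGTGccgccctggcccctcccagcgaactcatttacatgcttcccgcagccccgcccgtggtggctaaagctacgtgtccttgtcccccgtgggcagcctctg

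The Prss2 promoter held both motifs, the CACCTG 169 and the TGGGAA 111 bases before the start, and Reg2 held 1 CACCTG between 2 TTCCCA. For Prss2 and Reg2, unlike the others shown, the bases after the RefSeq start were not found near the head of a GENCODE M21 transcript. Their windows therefore hold for the RefSeq start only. Ctrb1 held only a TTCCCA and Cela1 only a CACCTG. Bhlha15 held CAGGTG at 200 and 55 bases before the start and no TGGGAA. RefSeq gave 33 promoters for 31 of the 39 members, 26 of them measured. CACCTG occurred in 19 of the 33 (57.6%), against 20.2% of all 32851 promoters of the same length, and TGGGAA also in 19 (57.6%), against 25.6%. Both together occurred in 9 (27.3%), against 5.27% of all promoters, and no member promoter had the motifs overlapping each other. The letters TATAAA were found in 42.4% of the member promoters and in 13.6% of all, and the NR5A2 half-site AAGGTCA in 12.1% and 4.72%. The E-box CATATG was in 0 of the 33 windows and in 3.91% of all promoters. A match of letters is a description of the window and no evidence of binding.

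The amount of acinar transcripts differed several fold between libraries, also between the libraries of a group. The 32 members made up 0.614% of normalized counts in the untreated KO female library and 0.266% in the untreated KO male library. With cytokines the shares were 1.05% in the KO female and 0.193% in the KO male. The WT libraries held 0.517% in the untreated female, 0.0726% in the untreated male, 0.238% in the treated female and 0.0520% in the treated male. The female library was higher in each of the 4 groups, and the KO and WT libraries overlapped in both treatments. As group means the shares were 0.440% ± 0.246 (SD, n = 2) in untreated KO, 0.622% ± 0.606 in treated KO, 0.295% ± 0.314 in untreated WT and 0.145% ± 0.131 in treated WT islets. In every group but the untreated KO islets the SD was about as large as the mean. In bulk RNA, fewer acinar cells and less RNA per acinar cell cannot be told apart.

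**Figure D1:**
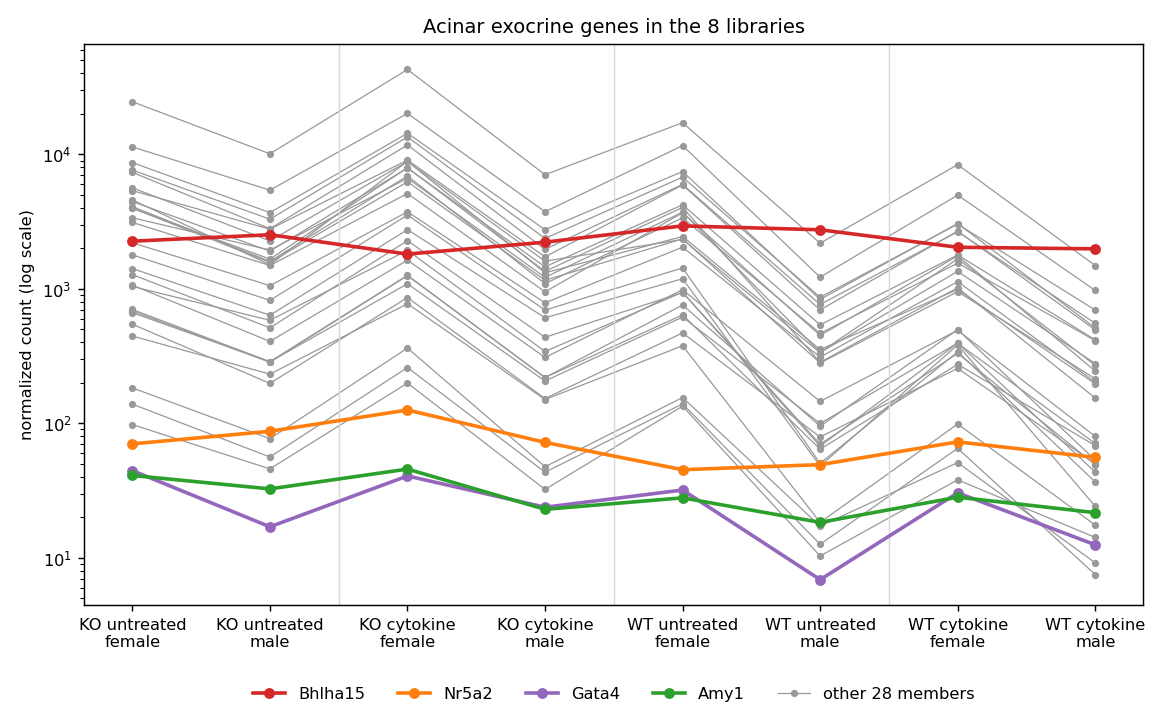
Normalized counts of the 32 acinar exocrine genes (log scale) in each of the 8 libraries, in 4 groups of 1 female and 1 male mouse, with 1 line per gene. The enzyme genes in grey go up and down together and peak in the treated KO female library, while Bhlha15 stays between 1814 and 2941, and Nr5a2 and Amy1 vary 2.78-fold and 2.49-fold.

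All 29 enzyme, secreted and granule genes were highest in the treated KO female library, and 25 of them were lowest in the treated WT male library. The other 4 were lowest in the untreated WT male library. Relative to the treated KO female, the median of the 29 was 56.7% in the untreated KO female, 24.1% in the untreated KO male and 18.3% in the treated KO male. In WT libraries it was 51.1% in the untreated female, 5.18% in the untreated male, 22.5% in the treated female and 4.06% in the treated male. The female library exceeded the male one in all 4 groups for 30 of the 32 members, against 19.8% of all genes with recovered reads. Bhlha15 and Nr5a2 were the exceptions. The median female over male ratio of the 29 was 2.36 in untreated KO, 5.46 in treated KO, 8.38 in untreated WT and 5.57 in treated WT islets.

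Trypsinogens are the precursors of the protease that activates the other pancreatic enzymes. Prss2 held 8698 and 3689 normalized counts in the untreated KO libraries (female before male, here and below), 14361 and 2754 in treated KO, 7454 and 834 in untreated WT and 3063 and 512 in treated WT. Its 2 highest libraries were both from the KO female and its 2 lowest both from the WT male, and KO and WT overlapped in both treatments because the WT female stood above the KO male. Try4, another trypsinogen, held 5647 and 2274 in untreated KO, 8857 and 1607 in treated KO, 2330 and 336 in untreated WT and 1350 and 278 in treated WT. With cytokines both Try4 values of KO lay above both of WT. Try5 did the same, with 6257 and 1159 in treated KO against 955 and 214 in treated WT islets. The coding sequences of Try4 and Try5 were 97.4% identical in GENCODE M21 and shared an unbroken run of 274 bases, and Prss2 and Try4 were 91.8% identical. The sources used here do not say how reads that match several trypsin genes were counted, so the split between these genes is uncertain, and the same holds between them and Prss1, Prss3 and Try10, which were not analysed here.

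Chymotrypsinogens and elastases are serine proteases of the same granules. Ctrb1, a chymotrypsinogen, was the most abundant member, with 24645 and 10107 normalized counts in untreated KO, 42802 and 7061 in treated KO, 17217 and 2185 in untreated WT and 8384 and 1491 in treated WT. Per kilobase of exon it was also the highest member, with a mean over libraries of 16214 normalized counts per kilobase, before Prss2 with 6344, Try4 with 3539 and Cela1 with 3226. Cela1, an elastase, held 11369 and 5419 in untreated KO, 20173 and 3746 in treated KO, 11624 and 1222 in untreated WT and 4979 and 973 in treated WT. For Cela1 the untreated female libraries of the genotypes were nearly level, while the male ones differed by 2.15 on the log2 scale. The ranges over the 8 libraries were 202 to 3741 for Ctrl, a chymotrypsin-like protease, 245 to 5117 for Cela2a and 270 to 6652 for Cela3b, both elastases. Cela2a lies on chromosome 4 (141814962 to 141826160, minus strand, GRCm38) and overlaps Casp9 on the other strand and Ctrc, and the sources used here do not say whether reads keep their strand.

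Carboxypeptidases A1 and B1 trim amino acids from the ends of peptides. Cpa1 held 7640 and 3298 in untreated KO, 13483 and 2372 in treated KO, 6774 and 865 in untreated WT and 3032 and 696 in treated WT. Cpb1 ranged from 412 in the treated WT male to 6921 in the treated KO female library. Both genes therefore had their extremes in the same libraries as the proteases.

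Among the 6 genes of fat digestion, Pnlip encodes pancreatic lipase, Clps its cofactor colipase, Cel the bile-salt-dependent lipase and Pla2g1b a secreted phospholipase. Pnlip held 5376 and 2777 in untreated KO, 9082 and 1731 in treated KO, 5928 and 697 in untreated WT and 2688 and 496 in treated WT. Cel ranged from 554 to 11754, Clps from 43.3 to 1091 and Pla2g1b from 9.16 to 363 over the 8 libraries. Pnliprp1, a lipase-related protein, ranged from 417 to 7911 and Pnliprp2, a related lipase, from 64.2 to 1253. The treated KO female was the highest library for all 6. Pla2g1b rested on 11 reads in the treated WT male library, and its ratio between the highest and the lowest library, 39.6, has the counting error of that number. Cel overlaps Gm13381 on the other strand.

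Amylases digest starch, and the pancreatic ribonuclease digests RNA. Rnase1, the ribonuclease, ranged from 50.0 in the treated WT male to 861 in the treated KO female library. Amy2b held 97.9 and 45.8 in untreated KO, 199 and 32.3 in treated KO, 134 and 10.3 in untreated WT and 38.0 and 14.2 in treated WT, and GENCODE M21 lists the gene as an unprocessed pseudogene. Its WT male values rested on 9 reads untreated and 17 treated. Amy1, the amylase gene of salivary gland and liver in the mouse, held 40.9 and 32.5 in untreated KO, 45.7 and 22.9 in treated KO, 27.9 and 18.3 in untreated WT and 28.2 and 21.7 in treated WT. Amy1 varied 2.49-fold over the libraries, the least of the 29, where the other 28 varied 16.8-fold to 114-fold. It rested on 16 to 46 reads a library and overlaps Rnpc3.

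Spink1, the trypsin inhibitor of the granule, and Klk1, tissue kallikrein, had wider spreads than most enzymes. Spink1 held 446 and 232 in untreated KO, 775 and 150 in treated KO, 378 and 18.3 in untreated WT and 98.8 and 17.5 in treated WT. Both WT male libraries were lower than every other library by more than 5-fold, on 16 reads untreated and 21 treated. Klk1 ranged from 49.2 in the treated WT male to 1935 in the treated KO female, and overlaps Gm10109 on the other strand.

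The Reg genes encode small secreted lectins, which are known to be raised in inflamed or injured pancreas, and Reg2 is also known from mouse islets. Reg1 held 4592 and 1511 in untreated KO, 8881 and 1316 in treated KO, 2451 and 354 in untreated WT and 989 and 197 in treated WT. Reg2 held 1792 and 821 in untreated KO, 3538 and 695 in treated KO, 1430 and 50.4 in untreated WT and 340 and 36.7 in treated WT. Reg3b held 1416 and 637 in untreated KO, 2757 and 610 in treated KO, 1188 and 48.1 in untreated WT and 383 and 24.2 in treated WT. With cytokines all 3 genes were higher in both KO than in both WT libraries, and untreated the groups overlapped because the WT female library stood above the KO male one. Reg3b and Reg2 had the widest spreads of the 32 members, 114-fold and 96.5-fold between the highest and the lowest library. In that lowest library, the treated WT male, they rested on 29 and 44 reads.

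Of the granule proteins, Gp2 anchors in the granule membrane, Zg16 is a lectin of the granule, Sycn is syncollin, and Dmbt1 is a large secreted scavenger-receptor protein also made by epithelia of ducts. Dmbt1 held 3971 and 1665 in untreated KO, 7960 and 1349 in treated KO, 4031 and 284 in untreated WT and 1019 and 154 in treated WT. Gp2 ranged from 67.6 to 2284, Zg16 from 53.3 to 1261, Sycn from 80.0 to 1634 and Cuzd1 from 7.50 to 260. The lowest Cuzd1 value rested on 9 reads. For Gp2 and Dmbt1, as for Klk1, both treated KO libraries lay above both treated WT libraries. Dmbt1 and Cuzd1 overlap the annotated span of Fgfr2 on chromosome 7, and Sycn overlaps Samd4b on the other strand.

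Of the transcription factors, Bhlha15 and Nr5a2 did not follow the order of libraries seen for the enzymes. Bhlha15 held 2262 and 2527 in untreated KO, 1814 and 2224 in treated KO, 2941 and 2751 in untreated WT and 2040 and 1984 in treated WT. It varied only 1.62-fold over the libraries and was lowest in the treated KO female, the library in which the enzymes were highest. Set against Cela1 its level ran from 0.0899 in the treated KO female to 2.25 in the untreated WT male library. Nr5a2 held 70.3 and 87.2 in untreated KO, 126 and 72.2 in treated KO, 45.2 and 49.3 in untreated WT and 72.8 and 55.8 in treated WT. Gata4 held 44.5 and 17.0 in untreated KO, 40.6 and 23.8 in treated KO, 31.9 and 6.88 in untreated WT and 30.4 and 12.5 in treated WT. Gata4 was higher in the female library of every group, like the enzymes, but rested on 6 to 50 reads. Per kilobase of exon the means over libraries were 663 normalized counts for Bhlha15, 12.3 for Nr5a2 and 6.65 for Gata4.

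The change with cytokines in KO islets split by mouse. Each mouse gave 1 culture per treatment, so within a mouse an action of the cytokines cannot be told apart from a difference between cultures. This holds for the WT mice too. Within the KO female mouse all 29 enzyme, secreted and granule genes were higher with cytokines, with a median log2 change of 0.82 and values from 0.15 (Amy1) to 1.02 (Amy2b). Within the KO male mouse all 29 were lower, with a median of -0.47 and values from -0.77 (Klk1) to -0.06 (Reg3b). Higher in the KO female and lower in the KO male were 30 of the 32 members, against 20.9% of all genes. The median log2 change of all genes was 0.01 in the KO female and -0.01 in the KO male. Ctrb1 stood at 0.80 in the female and at -0.52 in the male on this scale, with 1 normalized count added to each value.

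By the DESeq2 test of the authors' deposited table, 0 of 32 members passed an FDR of 0.05 in KO islets, against 0.0429% of all genes. At an unadjusted p below 0.05 the authors' deposited table held 0 members as well, and 1.02% of all genes. The deposited log2 fold changes were positive for 30 of 32 members, with a median of 0.58 against 0.001 for all genes and values up to 0.85 (Reg3b, SE 1.80) in the authors' deposited table. Bhlha15 had the smallest p of the members there (log2 fold change -0.25, SE 0.13, with an FDR of 0.999987). It was also the only member whose treated and untreated KO groups did not overlap, with both treated values lower, a pattern seen in 14.6% of all genes. Fitted with limma on the recovered values, 0 members passed an adjusted p of 0.05 without a block (0 also unadjusted) or with the mouse as a block, where 1 had an unadjusted p below 0.05 (8.31% of all genes) and 0.123% of all genes were called. The median log2 fold change of the members in limma was 0.15 with all mice and -0.43 without the KO female mouse.

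**Figure D2:**
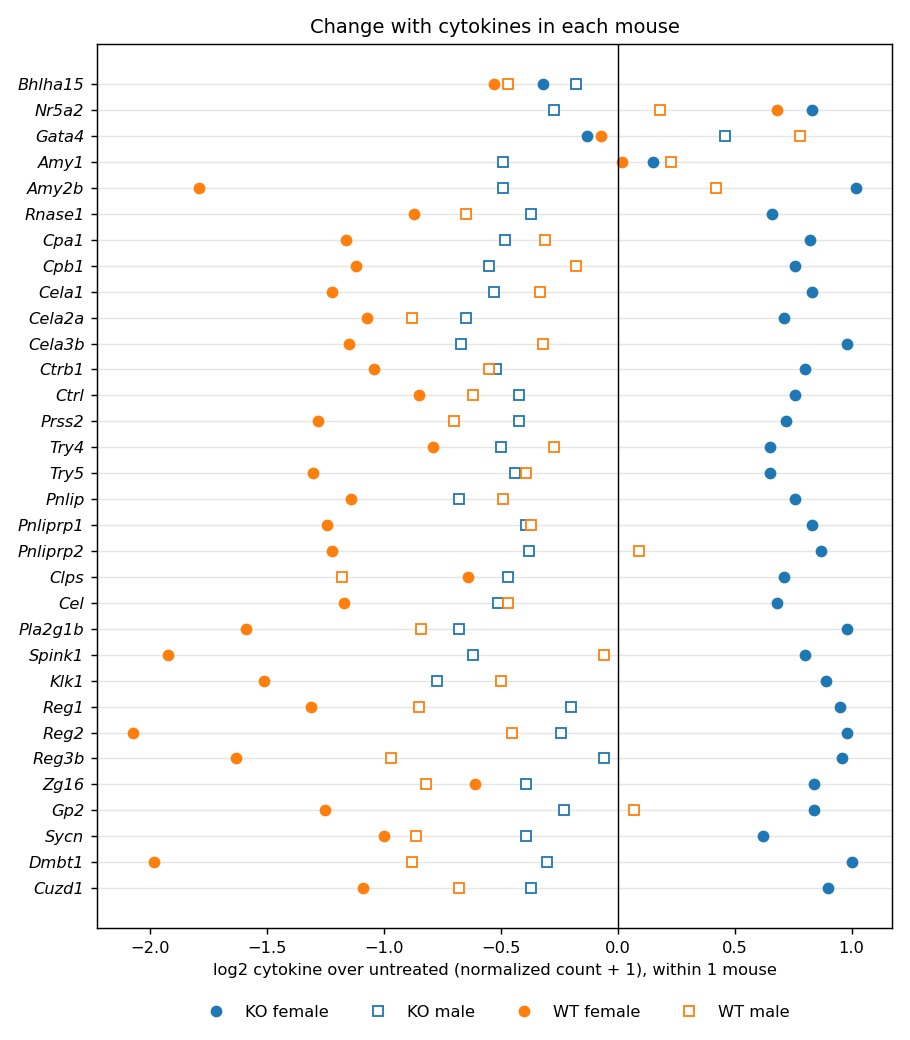
Log2 change from the untreated to the cytokine-treated library within each of the 4 mice, for the 32 acinar exocrine genes, with 1 point per mouse. In the KO female all points but those of Bhlha15 and Gata4 lie above 0, in the KO male all but Gata4 lie below 0, and Bhlha15 is below 0 in all 4 mice.

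In WT islets most members were lower with cytokines in both mice. Within the WT female 28 of the 29 enzyme, secreted and granule genes were lower, with a median log2 change of -1.17 and a lowest value of -2.07 for Reg2. Within the WT male 25 of the 29 were lower, with a median of -0.49 and a lowest value of -1.18 for Clps. Lower in both WT mice were 26 of the 32 members, against 25.9% of all genes. Even so, the difference between the mice was larger than that between the treatments. The members made up 0.238% of normalized counts in the treated WT female library and 0.0726% in the untreated WT male.

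The authors' deposited table for WT islets called 0 of 32 members at an FDR of 0.05, against 0.0122% of all genes, and held 1 member with an unadjusted p below 0.05, against 0.918% of all genes. The median log2 fold change of the members was -1.03, against 0.003 for all genes, and 29 of 32 were negative in the authors' deposited table. Reg2 had the most negative value in the authors' deposited table, -1.88 (SE 1.77, FDR 0.999908), followed by Dmbt1 with -1.82 (SE 1.65). In the authors' deposited table the member with the unadjusted p below 0.05 was Bhlha15, at -0.50 (SE 0.13, FDR 0.236). Both treated WT values of Bhlha15 lay below both untreated ones, as in 10.9% of all genes. Nr5a2 was the only member with both treated WT values above both untreated ones, as in 11.4% of all genes, and the authors' deposited table gives it 0.44 (SE 0.50, FDR 0.999908).

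Blocked by mouse, the limma fit called 1 of the 32 members in WT islets, against 0.154% of all genes, and 0 without the block. At an unadjusted p below 0.05 were 24 members with the block, against 12.1% of all genes, and 1 without it, against 2.07%. The called member was Bhlha15, which fell by 0.50 on the log2 scale (SE 0.06, limma adjusted p 0.0269). In KO islets the same fit gave -0.25 (SE 0.06, limma adjusted p 0.254). Bhlha15 was the only member lower with cytokines in all 4 mice, a course shared by 12.5% of all genes, with log2 changes of -0.32 and -0.18 in the KO female and male and -0.53 and -0.47 in the WT female and male. A single cytokine term over both genotypes with the mouse as a block, chosen after the data had been seen, gave -0.38 (SE 0.05, limma adjusted p 0.0219), with 1 member called against 0.896% of all genes. That call was lost without the KO female (limma adjusted p 0.0926) or without the WT male (limma adjusted p 0.116, with 0.282% of all genes called), and held without the KO male (limma adjusted p 0.0145, 0.252% of all genes) or the WT female (limma adjusted p 0.0302, 1.08% of all genes). Without the KO female 4 other members were called lower, Cela2a, Ctrb1, Ctrl and Pnlip, against 0.184% of all genes.

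To ask whether a member responded differently in the genotypes, its fold changes with cytokines were subtracted, KO minus WT, and set against their joint standard error. By this normal test 0 of 32 members stood at an adjusted p below 0.05 and 0 at an unadjusted p below 0.05, and 0% and 0.22% of all genes. The KO response minus the WT response had a median of 1.60, and it was largest for Reg2 (log2 2.71, SE 2.50). For Bhlha15 it was 0.25 (SE 0.18). In limma 0 members were called without a block (0 unadjusted) and with the mouse as a block (19 unadjusted, against 4.04% of all genes), where the smallest adjusted p was 0.998. The median difference in limma was 0.94. In the normal test, standard errors of about 2 on the log2 scale leave differences of several fold undetectable for the enzyme genes. That limit is of this test, whereas the fit with the mouse as a block pairs the cultures of a mouse.

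In untreated islets the knockout and wild type differed mainly in the male mice. Among the 29 enzyme, secreted and granule genes the KO over WT log2 ratio of the female libraries had a median of 0.17, with 21 genes higher and 8 lower, while in the male libraries the median was 2.09 and all 29 were higher. Cela1, for example, stood at -0.03 in the females and 2.15 in the males. Try4 stood at 1.28 and 2.76 and was the member with the highest ratio in the females.

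The authors' deposited table called 0 of 32 members between untreated KO and WT islets, against 0.41% of all genes, and 0 had an unadjusted p below 0.05, against 4.89% of all genes. The median log2 fold change of the members was 0.54, against -0.004 for all genes, in the authors' deposited table. The authors' deposited table gives the largest value to Try4, 1.57 (SE 1.31, FDR 0.999809), before Reg1 with 1.12 (SE 1.37) and Try5 with 1.08 (SE 1.32). Nr5a2 and Amy1 were the members with both untreated KO values above both WT values, as in 18.6% of all genes, and Bhlha15 was the one with both below, as in 18.3%. The authors' deposited table gives Nr5a2 0.74 (SE 0.43, FDR 0.999809) and Bhlha15 -0.25 (SE 0.14, FDR 0.999809). With sex as a block limma called 2 members, Reg1 (log2 1.50, SE 0.26, limma adjusted p 0.0349) and Try4 (log2 2.02, SE 0.29, limma adjusted p 0.0200), against 2.08% of all genes in either direction and 1.52% higher. At an unadjusted p below 0.05 were 24 members with the block, against 14.7% of all genes. Without the block it called 0 (0 unadjusted), against 0.0123% of all genes. The limma median of the members was 1.05 with all mice and -0.40 without the WT male mouse, where 25 of the 32 members had the other sign. The fit with sex as a block treats the treated and the untreated library of a mouse as independent, so its p-values are too small.

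With cytokines every one of the 29 genes was higher in KO than in WT islets, in both sexes. The median log2 ratio was 2.15 between the female libraries and 2.17 between the male libraries. The groups nevertheless overlapped for most members, because the treated WT female library stood above the treated KO male one. For 9 of the 32 members both KO values lay above both WT values, as in 14.7% of all genes: Try4, Try5, Spink1, Klk1, Reg1, Reg2, Reg3b, Gp2 and Dmbt1. No member had both KO values below both WT values, against 14.2% of all genes.

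The authors' deposited table called 0 of 32 members between treated KO and WT islets, against 0.998% of all genes. All 32 log2 fold changes were positive, with a median of 2.09 against -0.003 for all genes, in the authors' deposited table. At an unadjusted p below 0.05 were 5 members, Reg1, Amy2b, Reg2, Try4 and Try5, against 5.88% of all genes in the authors' deposited table. The authors' deposited table gives Reg2 a log2 fold change of 3.49 (SE 1.69, FDR 0.733), Reg1 one of 3.10 (SE 1.37, FDR 0.580) and Reg3b one of 3.05 (SE 1.73, FDR 0.999999). Ctrb1 had 2.34 (SE 1.36), Prss2 2.26 (SE 1.42) and Bhlha15 0.01 (SE 0.14) in that column of the authors' deposited table. The 2 genotype comparisons rest on libraries of the same 4 mice, so they are not independent of each other.

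With sex as a block limma called 23 of the 32 members higher in treated KO islets, against 2.47% of all genes higher and 3.74% in either direction. Without the block it called 0 (0 unadjusted), against 0.0123% of all genes. Reg1 stood at 2.95 (SE 0.26, limma adjusted p 0.00451) and Try4 at 2.62 (SE 0.29, limma adjusted p 0.00870) in the blocked fit. The members not called there included Bhlha15 (log2 -0.00, SE 0.10). As said of the untreated comparison, these p-values are too small. The enzyme genes went up and down together over the libraries, so the 23 calls are not independent of one another. The same holds for counts of members in the other comparisons. The median log2 fold change of the members in limma was 1.98 with all mice, 0.73 without the KO female, 0.88 without the WT male, 3.20 without the KO male and 3.22 without the WT female mouse. An exact permutation test of 2 against 2 libraries cannot give a two-sided p below 0.333.

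**Figure D3:**
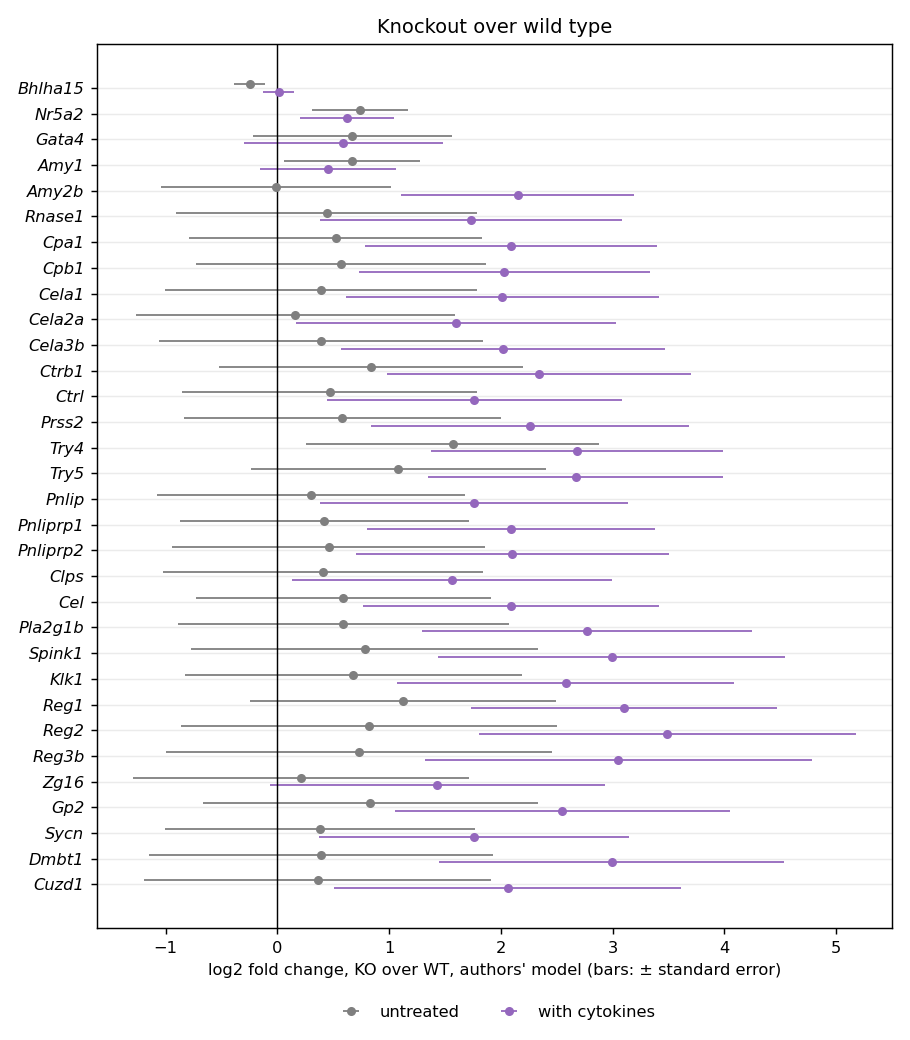
Log2 fold change of KO over WT islets for the 32 acinar exocrine genes in the model of the authors' deposited tables, untreated in grey and with cytokines in purple, with bars of 1 standard error. With cytokines all points lie to the right of 0, around a median of 2.09, and most bars extend more than 1 log2 unit to each side.

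The makeup of the acinar signal was steadier than its amount. Taken as a share of the summed 29 genes, Ctrb1 made up 18.7% to 22.3% in the 8 libraries, Prss2 6.68% to 8.10% and Cela1 10.3% to 12.7%, while the sum itself varied from 0.0410% to 1.04% of all counts. These 3 had the steadiest shares of the 29, by the SD of the log2 share. Amy1 had the widest range of shares, 0.0238% to 0.283%. The genes named next were picked after their values were seen and were not tested. Reg3b made up 1.28% to 1.79% of the sum in the KO libraries and 0.316% to 1.29% in WT, and Reg2 made up 1.62% to 2.04% in KO and 0.470% to 1.55% in WT. For both genes the untreated WT female library was near the KO libraries and the other 3 WT libraries were lower. Spink1 had the same order, with 0.403% to 0.488% in KO, 0.410% in the untreated WT female and 0.171% to 0.243% in the other WT libraries. Dmbt1 made up 3.50% to 4.14% in KO and 4.38% in the untreated WT female, against 2.01% to 2.65% in the other WT libraries.

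In 13 of the 29 genes the shares of the 4 KO libraries did not overlap those of the 4 WT libraries. Ctrb1, Gp2, Reg2, Try4 and Try5 had the higher shares in KO, and Cela1, Cela2a, Cpa1, Pnlip, Pnliprp1, Rnase1, Sycn and Zg16 the lower ones. As normalized counts, 0 of the 29 were apart in this way, against 10.1% of all genes. That 10.1% is for normalized counts and is no background for the 13, for which none was computed. Shares of 1 sum are tied to each other, so the 13 genes are not independent of one another, and no test was made of them. Try4 made up 4.61% to 5.11% of the sum in the 4 KO libraries and 2.53% to 3.63% in the 4 WT libraries, and Try5 3.26% to 3.60% against 2.35% to 2.80%. The third trypsin gene, Prss2, did overlap, with 7.47% to 8.09% in KO and 6.68% to 8.10% in WT. Ctrb1 ranged from 20.7% to 22.3% in KO and from 18.7% to 20.6% in WT. For Cela1 the shares were barely apart, with at most 11.388% in KO and at least 11.3925% in WT. Relative to Prss2, Try4 ran from 0.583 to 0.649 in KO and from 0.313 to 0.544 in WT libraries. In the other direction, Pnlip made up 4.73% to 5.84% in KO and 6.44% to 6.61% in WT, and Cela2a 2.66% to 3.14% in KO and 3.20% to 4.32% in WT. These are 2 mice per genotype with 2 libraries each, and a difference between 2 pairs of mice cannot be told apart from one between genotypes.

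**Figure D4:**
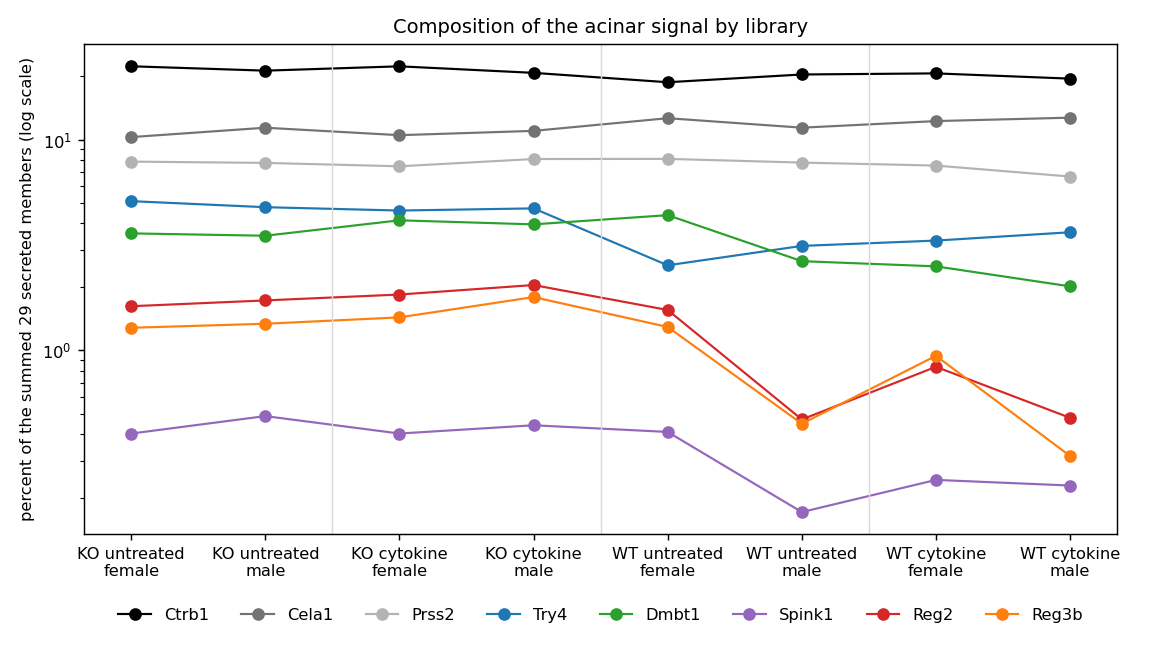
Share of 8 genes in the summed normalized counts of the 29 enzyme, secreted and granule genes (percent, log scale), in each of the 8 libraries. Ctrb1, Cela1 and Prss2 form nearly flat lines, Try4 is lower in the WT libraries, and Reg2, Reg3b, Spink1 and Dmbt1 are lower in 3 of the 4 WT libraries.

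Another 27 genes of the acinar cell, for its granule traffic, its stress response and further secreted products, were listed beside the members, and 17 of them were in the tables. The authors' deposited tables called 0 of the 17 in each of the 4 comparisons. Their median log2 fold changes were 0.11 and -0.25 for cytokines in KO and WT islets and 0.18 and 0.57 for KO over WT untreated and with cytokines, in the authors' deposited tables. The female library was above the male one in all 4 groups for 11 of the 17. Reg3g, a bactericidal lectin of the Reg family, held 221 and 121 in untreated KO, 558 and 92.5 in treated KO, 233 and 6.88 in untreated WT and 69.5 and 5.83 in treated WT, the order of the enzymes. Nupr1, a stress-induced nuclear protein, was at 7995 in the treated KO female and at 2185 to 4481 in the other libraries. Against this, Rab3d, a GTPase of the granule, held 4470 to 5655 over all libraries, and Derl3, a protein of ER-associated degradation, was higher in the male library of every group (428 to 879 in the female and 814 to 1357 in the male libraries). Rab27b, a further GTPase of secretion, held 33.2 to 121 and Tmed6, a cargo receptor of the early secretory route, 176 to 283 over the 8 libraries. For treated KO over WT islets the authors' deposited table gives Reg3d 3.36 (SE 1.73), Erp27, a chaperone of the ER, 2.31 (SE 1.15) and Derl3 0.69 (SE 0.37), the smallest p-values of the 17.

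Markers of other cells present in islet preparations were summed in the same way. The 15 measured duct markers of 18 made up 0.164% to 0.211% of counts in KO and 0.173% to 0.208% in WT libraries. Of these 15, 8 were higher in the female library of every group, as were 19.8% of all genes. The most abundant of the list, Spp1, a secreted phosphoprotein named here after its values were seen, was higher in the male library of every group, with 7868 and 18555 in untreated KO, 10374 and 15638 in treated KO, 6777 and 17192 in untreated WT and 8295 and 19476 in treated WT. Krt19, a keratin of duct cells and one of the 8, held 285 and 146 in untreated KO, 513 and 110 in treated KO, 286 and 32.1 in untreated WT and 191 and 39.2 in treated WT. The duct sum is weighted to abundant genes such as Spp1 and shows little of the course of scarcer ones such as Krt19. Cftr, the chloride channel of duct cells, was higher in the male library of every group, with 991 in the treated KO male against 420 in the female. The 13 stromal markers of 14 made up 0.0299% to 0.0798% in KO and 0.0134% to 0.0651% in WT libraries, with the summed level higher in the female library of each group, as were 6 of the 13 genes singly. The 12 endothelial markers made up 0.0307% to 0.0415% in KO and 0.0516% to 0.0704% in WT, and the 11 leukocyte markers of 14 0.0156% to 0.0273% and 0.0104% to 0.0139%. Higher in every female library were 3 of the 12 and 2 of the 11. Of the hormone-cell lists, all 5 measured alpha-cell markers with recovered reads and 5 of 6 delta- and PP-cell markers were higher in the female library of every group. Among the beta-cell markers with recovered reads it was 3 of 6. Of the duct, stromal, endothelial and leukocyte markers measured, Ms4a1, a gene of B cells, was at 0 in the untreated WT male library and no other marker was at 0 in any library. The part of these cell types in the acinar differences was not tested.

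**Figure D5:**
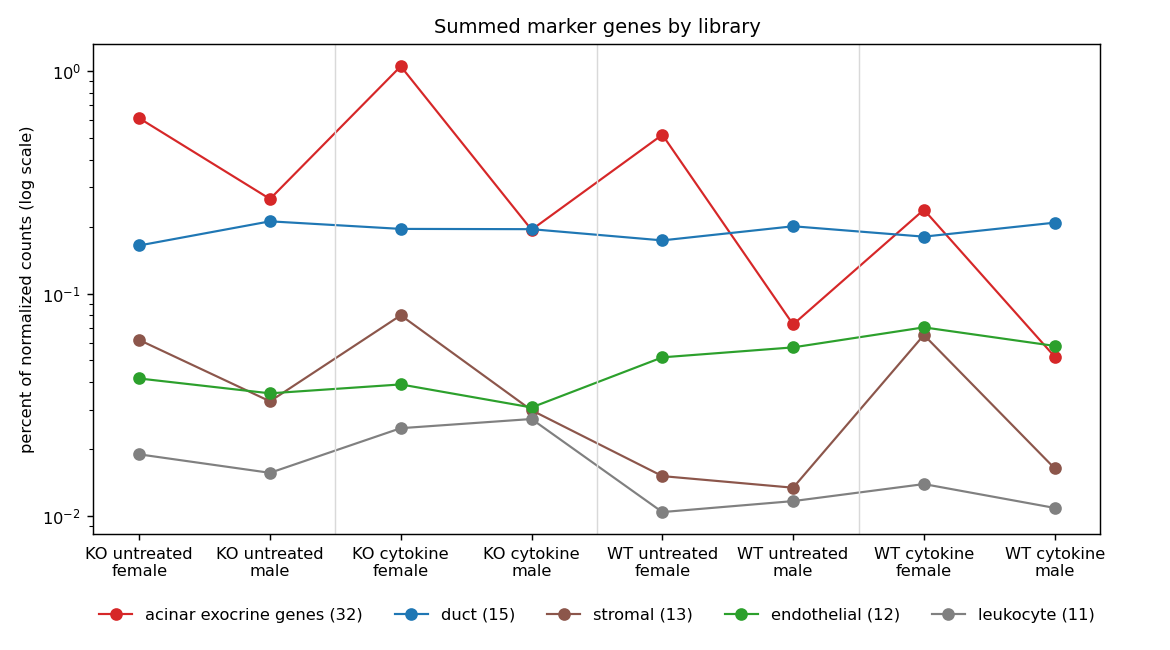
Summed normalized counts of the 32 acinar exocrine genes and of 4 marker lists (number of measured genes in brackets) as percent of all recovered counts, log scale, in each of the 8 libraries. The acinar line runs between 0.0520% and 1.05%, the duct line between 0.164% and 0.211%.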

How the data were processed

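RNA-seq of 8 islet libraries was analysed from 4 tables of the authors' own comparisons. Per the submitters' processing notes HISAT2, HTSeq and DESeq2 were used with GRCm38, and their versions and parameters, the strandedness and the handling of reads that match several genes are not given in the sources used here. The signal columns that the authors deposited are averages of size-factor-normalized read counts, within a group or over all libraries. The authors also deposited log2 fold changes, a Wald statistic (a score), p-values and FDR values, and a deposited linear fold column was not used. The deposited tables call the genotypes KO and Mut, and Mut was taken for wild type, the remaining genotype. Standard errors are the deposited log2 fold change over the score.

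A group average of 2 libraries is a combination of whole reads with fixed weights, so reads were recovered for 16286 genes (16086 from the group means alone and 200 through the overall mean). The 47 others, Ins1, Ins2, Gcg and Iapp among them, held 23.4% of mean counts and are left out of totals and shares. The labels number the replicates, but which number a recovered library has is unknown, so libraries are named by sex. The design text says that islets of each mouse were divided, and sex links both cultures of a mouse. Deviations of the untreated and the treated library of a mouse from their group means correlated at 0.74 in KO and 0.74 in WT over 14197 genes.

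The planned test was the authors' FDR below 0.05 over all genes. limma 3.58.1 (R 4.3.3) with an intensity trend was run on log2(normalized count + 1) of all genes with reads, without a block, with the mouse (cytokine) or sex (genotype) as a block, with 5 added, and with each mouse left out, Benjamini-Hochberg adjusted. Counting error only is covered by reads per gene, and replicates are mice, 2 a genotype. Recovery and fits were tested on simulated data. All measured members are named. From the other acinar genes the 3 smallest p-values per comparison were taken. Members and lists were chosen with earlier results of these data known. Sequences are from RefSeq (GRCm38.p6), and coding sequences for identities are the longest open reading frames of GENCODE M21.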

Additional observations from a re-analysis of the deposited data

Results flagged for a closer look

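Gata4, a transcription factor of acinar and other cells, was lower with cytokines in both female mice (log2 -0.13 in KO and -0.07 in WT) and higher in both male mice (0.46 in KO and 0.78 in WT). The female response minus the male response was -0.72 on the log2 scale. The difference was not tested, and it rests on 6 to 50 reads a library.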

How the results depend on the processing

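With 2 mice per genotype that differed several fold, single members could be called only where the mouse or the sex was a block. The replicate block moved the number of members called from 0 to 1 (cytokines in WT), 2 (untreated KO over WT) and 23 (treated KO over WT). In the same order, it moved the share of all genes called from 0% to 0.154%, from 0.0123% to 2.08% and from 0.0123% to 3.74%. The p-values with sex as a block, used for KO over WT, are too small. For cytokines in KO and for the interaction the number of members called stayed at 0. An FDR of 0.1, a mean of at least 50, limma without a block and with a pseudocount of 5 each gave 0 members, as did leaving out any mouse from the fit without a block. The fit over both genotypes called 1 member, and 0 to 4 with a mouse left out, where 4 (Cela2a, Ctrb1, Ctrl and Pnlip, lower) came without the KO female. The medians of the members in limma with all mice were 0.15 (cytokines in KO), -0.80 (cytokines in WT), 1.05 (untreated KO over WT), 1.98 (treated) and 0.94 for the interaction, against 1.60 from the deposited fold changes. When each mouse was left out, the limma median log2 fold change ranged from -0.43 to 0.81 for cytokines in KO (0.58 as deposited), from -1.15 to -0.47 in WT (-1.03), from -0.40 to 2.64 for untreated KO over WT (0.54) and from 0.73 to 3.22 with cytokines (2.09, or 1.96 by limma with a pseudocount of 5). Its sign was turned without the KO female (cytokines in KO, 29 of 32 members) and without the WT male (untreated KO over WT, 25 of 32). Leaving out a mouse leaves 1 library an arm, which is assumed to vary like the others. Without the Reg genes the mean share of counts in treated KO islets went from 0.622% to 0.574%. Without the hormone genes it was 0.623%, which could hardly have differed, since Ins1, Ins2, Gcg and Iapp were already outside the totals. Over single members, 800 values kept direction and side of the threshold, 26 passed it newly, 2 no longer passed and 72 changed sign without being called. That tally does not cover every call named above. The cause was not tested.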
